A study of Sus scrofa with 6 samples.

Results

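Large differentially methylated regions (DMRs) were defined as the regions with 15 or more CpGs in a comparison of *psoas major* muscle (PMM) with *longissimus dorsi* muscle (LDM) of the pig. Of 15633 listed DMRs, 710 met this rule, with each DMR identifier taken once, and the other 14923 held 5 to 14 CpGs. The rule used the number of CpGs and no depth value directly. Per the study's methods, however, a DMR was extended over neighbouring CpGs while their depth differed between the muscles. The number of CpGs and the length of a DMR therefore depend on the depths of these same libraries. PMM is a red, oxidative loin muscle and LDM is a white, glycolytic back muscle, and the study asked how the methylation of genes differs between these muscle types. The data were 3 libraries of PMM and 3 libraries of LDM made by methylated DNA immunoprecipitation and sequencing (MeDIP-seq), all from female Landrace pigs aged 210 days. The study describes the same pigs as the source of both muscles, but no label ties a replicate number to a pig, so the libraries were compared without pairing. The source field of every sample names *longissimus dorsi*, and the muscle was therefore taken from the sample title, which the tissue tag matches. The tissue itself could not be checked against marker genes, since DNA methylation is not expression.

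DNA methylation in vertebrates is found mainly at cytosines followed by guanine (CpGs). Methylated promoters and CpG islands are usually linked to silent genes, whereas the bodies of active genes are often methylated, and muscles of different body position keep distinct methylation at developmental regulators. In MeDIP-seq, sheared DNA is captured with an antibody against methylated cytosine. The read depth over a CpG therefore reflects both its methylation and the number of methylated CpGs on the same fragment, and it is not a methylation percentage. Because whole muscle was used, a change within the fibres and a different mix of cell types cannot be told apart.

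Each value below is a depth, namely the mean number of reads per CpG of a DMR in 1 library after scaling of that library by the authors. Across the large DMRs the median depth of a library ran from 22.6 to 27.7 in PMM and from 33.6 to 35.7 in LDM. Read totals of the libraries were not given with the depths, and the depth limits the precision of sparsely covered DMRs. Depths of the large DMRs correlated at 0.936 to 0.972 between libraries of the same muscle and at 0.397 to 0.67 between libraries of different muscles (Pearson's r of log2 depth across 710 DMRs, which share their libraries and are not replicates).

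The large DMRs were split almost evenly by direction, but the losses were bigger than the gains. Depth was higher in PMM in 346 large DMRs (48.7%) and lower in 364, while 56% of all listed DMRs were higher. The median difference, PMM minus LDM on the log2(depth + 1) scale, was -0.55 over the large DMRs and 0.56 over all DMRs. The large DMRs that were higher in PMM had a median fold of 1.66, and those that were lower had a median fold of 2.76. Differences over 2-fold were found in 39 DMRs that were higher and 318 that were lower, and differences over 4-fold in 2 DMRs that were higher and 30 that were lower. Losses were also bigger than gains over all listed DMRs, with median folds of 2.61 and 1.80. In the whole list, 2679 DMRs were higher and 5740 lower by over 2-fold, and 36 and 775 by over 4-fold. The bigger losses were therefore not particular to the large DMRs.

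In limma's moderated test with Benjamini-Hochberg adjustment over all 15633 DMRs, 707 large DMRs passed an adjusted p of 0.05, with 345 higher and 362 lower in PMM. The table lists regions that the authors had already selected for a difference on these same libraries, and 99.9% of all listed DMRs passed (55.9% higher and 44% lower), so the count describes the selection and is not independent evidence. Likewise, the 3 PMM libraries and the 3 LDM libraries did not overlap in any of the 710 large DMRs, as in 100% of all listed DMRs. The 3 large DMRs that did not pass lay downstream of *PIK3R3* (adjusted p = 0.350), between genes at chr12:57795194-57795536 (adjusted p = 0.0578) and in the promoter of *PDGFRA* (adjusted p = 0.0858). The last encodes a receptor for platelet-derived growth factor.

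At the level of libraries, the median log2(depth + 1) of the large DMRs was 4.84, 4.56 and 4.61 in PMM replicates 1, 2 and 3, against 5.20, 5.11 and 5.13 in LDM replicates 1, 2 and 3. PMM was lower by a mean of -0.47 and the muscles did not overlap (exact permutation test, two-sided, p = 0.1, the smallest value that 3 libraries against 3 allow). For the DMRs of 5 to 14 CpGs the same difference was -0.13. Large minus other DMRs therefore differed by -0.35 between the muscles, again without overlap (exact permutation test, p = 0.1). This mean difference depended on the number of CpGs required. With 10 or more CpGs (3085 DMRs) the mean difference of the library medians was -0.75. With 20 or more CpGs (209 DMRs) it was 0.31, that is, in the opposite direction.

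The direction changed with size within the large DMRs. Of those with 15 to 19 CpGs, 39.9% of 501 were higher in PMM, which was close to the 37.8% of 2375 DMRs with 10 to 14 CpGs. The share was 63.9% of 97 DMRs with 20 to 24 CpGs, 78.2% of 55 with 25 to 29 CpGs and 71.9% of 57 with 30 to 83 CpGs. Among the smallest listed DMRs, with 5 to 9 CpGs, it was 59.8% of 12548. The rule cut through a continuous range, since 38.5% of the 192 DMRs with exactly 15 CpGs and 32.5% of the 231 with exactly 14 CpGs were higher, with median log2 differences of -1.17 and -1.16.

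Length separated the directions more sharply than the number of CpGs. The large DMRs had a median length of 360 bp and a median of 17 CpGs, against 134 bp and 7 CpGs over all DMRs, and a similar CpG density of 5.02 against 5.38 CpGs per 100 bp. Only 3.06% of 98 large DMRs under 200 bp and 3.23% of 155 from 200 to under 250 bp were higher in PMM. The share was 33.3% of 54 from 250 to under 300 bp, 57.7% of 78 from 300 to under 400 bp, 75% of 108 from 400 to under 600 bp, 86.2% of 138 from 600 to under 1000 bp and 94.9% of 79 at 1000 bp or more. Across the large DMRs the difference had a Spearman's correlation of 0.619 with length, -0.685 with CpG density and 0.193 with the number of CpGs, against 0.334, -0.549 and -0.203 over all DMRs. Length and density were themselves closely related (Spearman's correlation -0.94 over the large DMRs and -0.81 over all DMRs). These are descriptions across DMRs of the same 6 libraries.

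**Figure D1:**
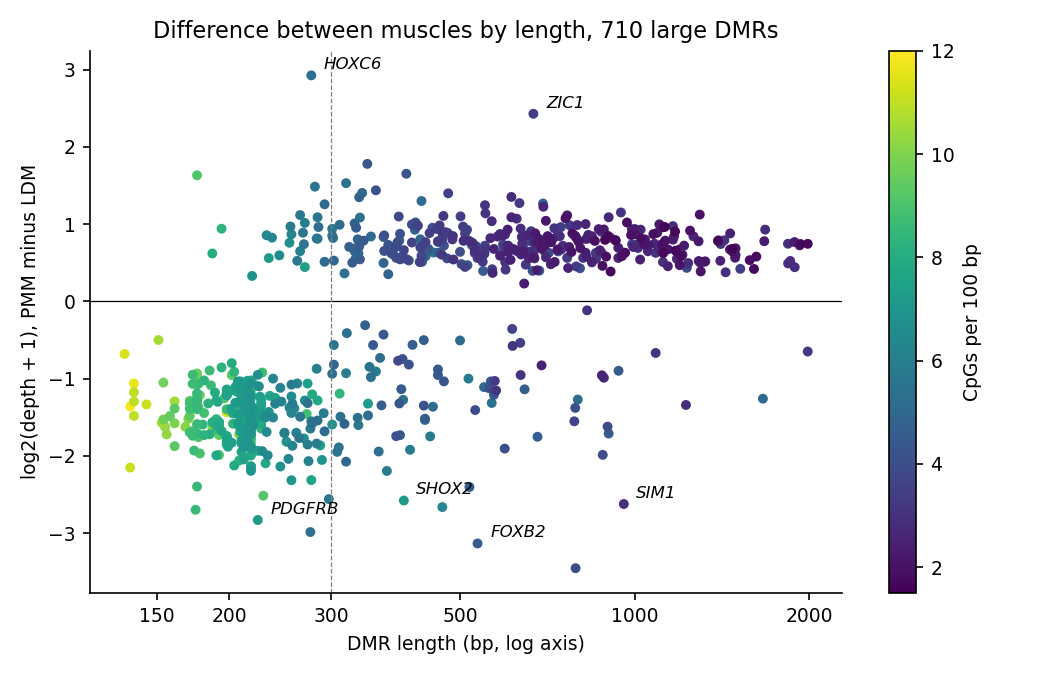
Length of each of the 710 large DMRs (x axis, bp, log axis) against the difference between muscles (y axis, log2(depth + 1), PMM minus LDM), with 1 point per DMR coloured by CpGs per 100 bp. Short, dense DMRs lie below 0, long, sparse DMRs lie mostly above 0, and the dashed line marks 300 bp.

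For description, the large DMRs were divided at 300 bp, a limit chosen after the values had been seen. The 307 compact DMRs under 300 bp held a median of 7.58 CpGs in every 100 bp, and 26 were higher and 281 lower in PMM. The 403 long DMRs of 300 bp or more held a median of 3.23 CpGs in every 100 bp, and 320 were higher and 83 lower. Compact DMRs had a median log2 difference of -1.46 and long DMRs of 0.67.

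The depths of single libraries showed in which muscle the classes differed. Median depths of the compact DMRs were 17.9, 11.4 and 13.1 in PMM replicates 1, 2 and 3, against 40.3, 35.1 and 39.7 in LDM replicates 1, 2 and 3. Median depths of the long DMRs were 42.3, 44.2 and 46.4 in the PMM replicates, against 31.9, 31.2 and 29.7 in the LDM replicates. In PMM the long DMRs were therefore about 3 times as deep as the compact ones, with 44.3 ± 2.02 for long and 14.1 ± 3.34 for compact (mean and SD of 3 library medians). In LDM the compact DMRs were somewhat deeper, with 38.4 ± 2.85 for compact and 31.0 ± 1.13 for long. The gap between long and compact DMRs was 1.60 ± 0.35 log2 units in PMM and -0.30 ± 0.12 in LDM (SD, n = 3 each), and these did not overlap (exact permutation test, two-sided, p = 0.1, the smallest possible). Since the classes were cut after the values were seen, this test is a description.

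**Figure D2:**
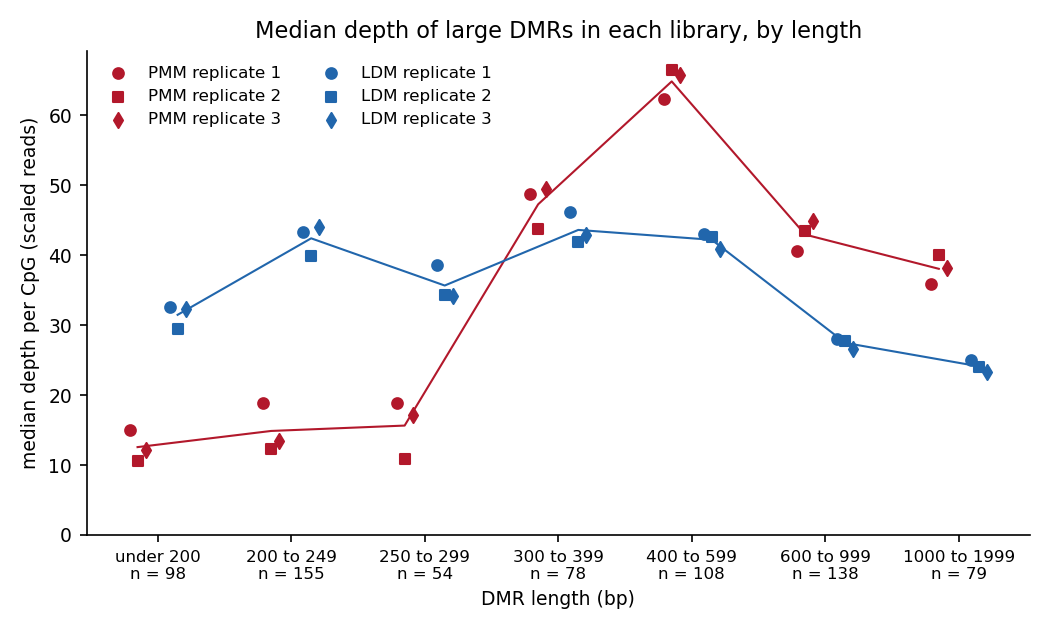
Median depth per CpG (y axis, scaled reads) of the large DMRs in 7 classes of length (x axis, bp), with 1 symbol per library and lines through the mean of the 3 libraries of each muscle, PMM left of LDM. PMM lies below LDM in the 3 classes under 300 bp and above LDM in the classes of 400 bp or more.

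The libraries of a muscle also differed among themselves along the same classes. In the 281 compact DMRs that were lower in PMM, PMM replicate 1 was the highest of the PMM libraries in 70.1% and PMM replicate 2 the lowest in 64.4%, and LDM replicate 2 was the lowest of the LDM libraries in 67.6%. In the 320 long DMRs that were higher in PMM, PMM replicate 1 was the lowest of the PMM libraries in 61.6% and LDM replicate 3 the lowest of the LDM libraries in 56.9%. PMM replicate 1 thus stood nearest to LDM in both classes. Without this library the mean difference of the library medians over the large DMRs was -0.56, against -0.47 with all libraries.

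The same order was found by CpG density, also among the DMRs of 5 to 14 CpGs. Density was divided at the quartiles of all DMRs, 3.69, 5.38 and 7.78 CpGs per 100 bp. From the sparsest class to the densest, 94.1%, 61.4%, 13.5% and 2.1% of the large DMRs were higher in PMM, against 93.9%, 76.6%, 38.7% and 17.3% of the DMRs with 5 to 14 CpGs. The sparsest classes did not separate by size, while the 3 denser classes held fewer large DMRs that were higher in PMM. By length the large DMRs were less often higher in PMM, with 8.47% of the compact and 79.4% of the long ones. The shares were 75.4% of 5180 DMRs of 5 to 14 CpGs from 150 to under 300 bp and 94.3% of 819 with 300 bp or more. At the same length a DMR with more CpGs is denser by definition, so this comparison cannot separate the number of CpGs from density.

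When a smooth trend of depth on CpG density was subtracted from each library, 318 large DMRs passed, with 70 higher and 248 lower in PMM, against 49.1% of all listed DMRs (26.6% higher and 22.6% lower). The share of large DMRs above 0 was then 26.6%. Of the large DMRs, 294 passed in their original direction, namely 69 that were higher and 225 that were lower. Among the classes by length, 43 of 320 long gains, 81 of 83 long losses, 26 of 26 compact gains and 144 of 281 compact losses passed in their original direction. A further 23 large DMRs, all long gains, passed as lower in PMM, and 1 compact loss passed as higher. Differences that run against a trend grow when it is subtracted. Some long losses shrank, as at *SHOX2* (log2 difference -2.58 before and -1.64 after) and *LRRC59* (-2.20 and -1.85). Where a long loss or compact gain grew, its kept call follows from the subtraction itself. This also holds for each DMR named below whose difference grew with the subtraction. Whether the trend is a property of the antibody capture or of the muscles was not tested.

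Many compact DMRs had exactly the same length. The length of 218 bp occurred in 48 large DMRs, which were spread over 17 chromosomes and held 15 to 22 CpGs, and every one of them was lower in PMM. Their log2 differences ran from -2.19 to -1.02 with a median of -1.58. Library medians of these 48 DMRs were 15.6, 9.78 and 11.7 in the PMM replicates, against 41.6, 34.8 and 37.2 in the LDM replicates. Of the 48, 32 were intergenic and 14 lay in gene bodies, including introns of *RYR1*, *METTL11B*, *IL20RB*, *ANO5*, *MYO1F* and *XK*. This length made up 6.76% of the large DMRs but 0.188% of the DMRs with 5 to 14 CpGs, of which 28 were 218 bp long and 20 of those were higher in PMM.

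Other lengths also recurred, with 17 large DMRs of 176 bp, 13 of 215 bp, 12 of 198 bp, 11 of 210 bp and 11 of 212 bp. Together the 6 lengths held by 10 or more large DMRs covered 112 DMRs, of which 1 was higher in PMM. This direction was shared by most large DMRs of similar length, since 95 of 98 under 200 bp and 150 of 155 from 200 to under 250 bp were lower. It was therefore not particular to the recurring lengths. The 307 compact DMRs had 104 distinct lengths, whereas the 403 long DMRs had 318, and no long length occurred more than 4 times. Without the DMRs of 218 bp the large DMRs had a median log2 difference of 0.42 in place of -0.55. Of those left, 346 were higher and 316 lower in PMM. Since 346 were higher and 364 lower before, leaving out as many losses of any length would also have turned the sign. Without the DMRs of 218 bp the library-level difference of medians was -0.32, and that of large minus other DMRs was -0.19 in place of -0.35. The recurring lengths were noticed in the data, and whether these DMRs share a repeated sequence was not tested, since no genome of this build was used here.

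**Figure D3:**
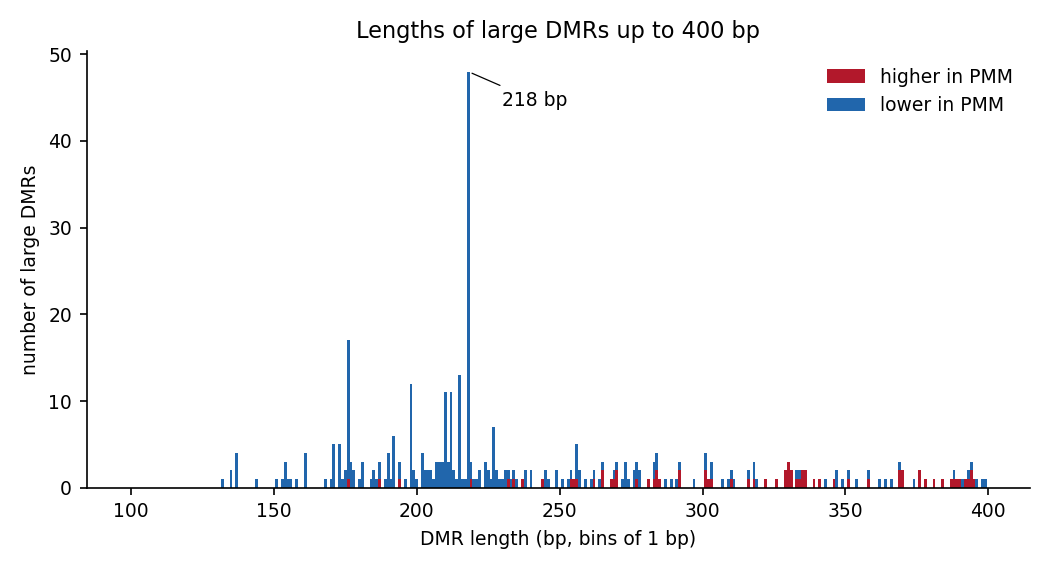
Number of large DMRs (y axis) at each length up to 400 bp (x axis, bins of 1 bp), with DMRs higher in PMM in red and lower in PMM in blue, stacked. The tallest bar is 218 bp with 48 DMRs, all lower in PMM.

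By position in genes, 26 large DMRs fell in promoters, 257 within gene bodies, 16 just downstream and 411 between genes. In PMM, 14 of 26 promoter DMRs, 149 of 257 gene body DMRs, 6 of 16 downstream DMRs and 177 of 411 intergenic DMRs were higher. The intergenic share, 43.1%, compared with 55.0% of all intergenic DMRs, and the gene body share, 58.0%, compared with 57.9% of all gene body DMRs. Gene body DMRs that touched an exon were higher in PMM in 56 of 66 cases (84.8%, against 69.8% of all such DMRs), and those in introns only in 93 of 191 (48.7%, against 56.1%). The exon class was mostly long, with 58 long DMRs of which 54 were higher and 8 compact DMRs of which 2 were higher. In introns 81.3% of 107 long and 7.14% of 84 compact DMRs were higher. Length and exon position therefore went together, and the difference between exons and introns was smaller within a length class than over all lengths.

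Of the 226 listed DMRs in CpG islands 23 were large, and of the 1086 in shores outside islands 68 were large (6.26%), whereas large DMRs made up 4.54% of the whole list. Of the 23 in islands, 8 were higher in PMM (34.8%, against 12.8% of all island DMRs), and of the 68 in shores, 31 were higher (45.6%, against 48.5%). The remaining 619 lay in neither, with 307 higher. Island losses were the deepest of the 3 classes, with a median fold of 3.79.

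The 10 DMRs with the most CpGs held 45 to 83 CpGs, and 8 of them were higher in PMM. The largest was an intergenic CpG island of 1664 bp with 83 CpGs at chr4:141483073-141484736. It had depths of 22.1, 11.5 and 15.8 in PMM, against 42.6, 32.8 and 44.3 in LDM, which was 2.39-fold lower in PMM (log2 difference -1.26 ± 0.23 SE, adjusted p = 0.000522). The next, an intergenic region of 1988 bp with 64 CpGs at chr14:151552569-151554556, had 10.6, 12.5 and 12.1 in PMM, against 18.1, 20.1 and 18.6 in LDM (1.57-fold lower, adjusted p = 0.00387). Both losses were kept when the density trend was subtracted (log2 differences -1.43 and -1.42). Both were long losses that grew with the subtraction, so their kept calls follow from the subtraction itself.

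The 8 gains among these 10 were smaller, from 1.34-fold to 1.91-fold. *PIP4K2A*, a phosphoinositide kinase, had an intronic DMR of 56 CpGs at chr10:58053281-58055168 with 70.5, 65.2 and 71.7 in PMM, against 49.9, 50.2 and 51.4 in LDM. An intergenic DMR of 54 CpGs at chr8:139457286-139459124 had 69.3, 67.1 and 76.0 in PMM, against 56.8, 47.4 and 46.3 in LDM. Another of 54 CpGs at chr9:1749498-1751335 had 55.9, 68.1 and 73.1 in PMM, against 36.2, 43.2 and 36.4 in LDM. All 3 were separated between the muscles by less than 2-fold. *GPC3*, a heparan sulphate proteoglycan of the cell surface, had 52 CpGs over exons and an intron with 69.6, 75.9 and 72.5 in PMM, against 52.6, 48.1 and 50.0 in LDM. *SDK2*, a cell adhesion protein of synapses, had 51 CpGs at its 3′ end, with 40.3, 39.2 and 38.2 in PMM, against 30.3, 26.9 and 30.1 in LDM.

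The largest gain of these 8 was found at *CDC6*, which loads the replicative helicase onto DNA. Its 47 CpGs over an exon and intron had depths of 24.4, 25.2 and 29.4 in PMM, against 13.3, 16.6 and 10.7 in LDM (1.91-fold higher, log2 difference 0.93 ± 0.19 SE, adjusted p = 0.000962). *UBE4B*, a ubiquitin ligase, had 46 CpGs in an intron with 43.3, 44.3 and 46.4 in PMM, against 26.7, 25.7 and 27.4 in LDM (1.65-fold higher). *ARHGAP26*, a GTPase-activating protein, had 45 CpGs in the first intron with 13.5, 13.7 and 12.9 in PMM, against 9.62, 10.5 and 8.82 in LDM (1.35-fold higher, adjusted p = 0.0449). The call at *ARHGAP26* was lost whichever library was left out, with adjusted p from 0.0569 to 0.13. None of the 8 gains passed in its direction once the density trend was subtracted, and the differences of 7 then lay below 0. Of these 7, *PIP4K2A*, *GPC3* and the DMR on chromosome 8 then passed as lower in PMM (adjusted p = 0.0224, 0.0356 and 0.0469).

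The 26 promoter DMRs divided by length without a single exception among the compact ones. All 11 compact promoter DMRs were lower in PMM, and 14 of 15 long promoter DMRs were higher. The largest loss was found at *SH3TC2*, which Schwann cells need for myelination. Its promoter DMR of 21 CpGs at chr2:157019753-157020029 lay in a CpG island and had 22.7, 9.80 and 19.9 in PMM, against 88.2, 73.7 and 98.0 in LDM (4.97-fold lower, log2 difference -2.31 ± 0.27 SE, adjusted p = 0.000264). *R3HDM2* had 17.0, 5.13 and 11.1 in PMM, against 52.1, 33.5 and 52.9 in LDM (4.19-fold lower). *VPS54*, a subunit of a tethering complex of the Golgi, had 28.1, 12.2 and 15 in PMM, against 64.4, 50.9 and 75.6 in LDM (3.49-fold lower). All 3 were compact, at most 277 bp long.

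Further promoter losses were of about 3-fold. *FAM175A*, a scaffold of a BRCA1 complex in DNA repair, had 13.5, 11.6 and 17.7 in PMM, against 39.1, 59.5 and 50.3 in LDM (3.32-fold lower). *DNAJB12*, a chaperone of the endoplasmic reticulum, had 10.0, 10.4 and 4.68 in PMM, against 30.6, 27.4 and 25.5 in LDM (3.22-fold lower). A DMR annotated to *BIN2*, *SMAGP* and *DAZAP2* had 20.3, 10.4 and 11.6 in PMM, against 43.0, 36.5 and 47.8 in LDM (2.97-fold lower). In these promoters PMM replicate 2 was often, but not always, the lowest library.

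Promoter gains stayed below 2-fold. The largest was at the DMR of *TBC1D8*, a protein with a Rab GTPase-activating domain, and the ribosomal protein gene *RPL31*, with 17.9, 17.6 and 14.8 in PMM, against 9.05, 9.07 and 6.42 in LDM (1.95-fold higher, adjusted p = 0.00141). *GRIA3*, an AMPA glutamate receptor subunit, had 39.4, 40.3 and 47.6 in PMM, against 23.3, 22.7 and 19 in LDM (1.91-fold higher). *RNU1-108P*, named as a U1 small nuclear RNA pseudogene, had 110, 142 and 145 in PMM, against 70.3, 75.1 and 67.7 in LDM (1.84-fold higher). Reads from near-identical copies of such a gene could be assigned to this place, so its depth is uncertain. *EFNA5*, a membrane-bound ephrin ligand of axon guidance, had 31.6, 30.3 and 39.9 in PMM, against 18, 18.8 and 17.1 in LDM (1.83-fold higher). *RBSN*, an effector of endosomal Rab proteins, had 33.3, 33.1 and 39.8 in PMM, against 17.5, 21.8 and 19.6 in LDM (1.76-fold higher). A DMR shared by *TFPT* and the splicing factor gene *PRPF31* had 32.4, 37.3 and 29.2 in PMM, against 15.7, 19.1 and 21.4 in LDM (1.72-fold higher). No promoter gain passed as higher after subtraction of the density trend and 3 passed as lower, whereas 8 of the 12 promoter losses kept their call. Of all large DMRs, 69 of 346 gains and 225 of 364 losses kept theirs, so the promoter losses were near the share of all losses.

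In gene bodies the losses were again larger than the gains. *PDGFRB*, a growth factor receptor of pericytes and other mural cells, had an intronic island DMR of 224 bp at chr2:158037478-158037701 with depths of 4.47, 1.89 and 8.12 in PMM, against 30.9, 31.4 and 49.1 in LDM (7.12-fold lower, log2 difference -2.83 ± 0.39 SE, adjusted p = 0.000264). An internal exon of *RP11-723O4.6* had 13, 0.465 and 6.17 in PMM, against 41.9, 31.9 and 50.8 in LDM (7.93-fold lower, adjusted p = 0.00161). PMM replicate 2 was almost without reads there, and the fold was 4.18 without PMM replicate 2 and 12.9 without PMM replicate 1. *C2CD3*, a centriole protein needed for cilia, had 13.2, 1.23 and 5.75 in PMM, against 34.2, 32.9 and 35.7 in LDM (5.90-fold lower, 3.60-fold without PMM replicate 2 and 9.09-fold without PMM replicate 1). *LRRC59*, a membrane protein of the endoplasmic reticulum, had 1.65, 11.5 and 7.04 in PMM, against 26.3, 31.2 and 28.1 in LDM (4.58-fold lower, 2.94-fold without PMM replicate 1). *METTL11B*, a protein N-terminal methyltransferase, had 21.0, 6.79 and 15.2 in PMM, against 75.2, 61.0 and 52.7 in LDM (4.5-fold lower). All of these losses kept their call after subtraction of the density trend.

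The largest gene body gains outside *ZIC1* were of at most 2.42-fold. *CTPS2*, a CTP synthase, had 43.7, 49.7 and 46.8 in PMM, against 21.8, 15.3 and 19.7 in LDM (2.42-fold higher, log2 difference 1.27 ± 0.15 SE, adjusted p = 0.000264). *PARK2*, the ubiquitin ligase parkin that marks damaged mitochondria for removal, had an intronic DMR of 33 CpGs with 53.9, 64.9 and 71.4 in PMM, against 24.4, 29.1 and 23.6 in LDM (2.41-fold higher). *GLOD4*, a protein with glyoxalase domains, had 26.2, 27.8 and 25.7 in PMM, against 11.4, 12 and 11.2 in LDM (2.20-fold higher). The replicates of each muscle lay close together in these 3 DMRs.

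Similar gains were found in genes of other functions. *CD58*, an adhesion ligand recognised by T cells in humans, had 102, 104 and 111 in PMM, against 59.1, 46.3 and 41.5 in LDM (2.15-fold higher). *CENPF*, a kinetochore protein, had 36.7, 34.3 and 40.1 in PMM, against 19, 17.9 and 14 in LDM (2.13-fold higher). *BLVRB*, a biliverdin reductase of haem breakdown, had 71.0, 88.1 and 92.5 in PMM, against 43.8, 41.0 and 32.2 in LDM (2.12-fold higher). After subtraction of the density trend *PARK2*, *BLVRB* and *CTPS2* kept their calls, and *GLOD4*, *CD58* and *CENPF* did not.

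**Figure D4:**
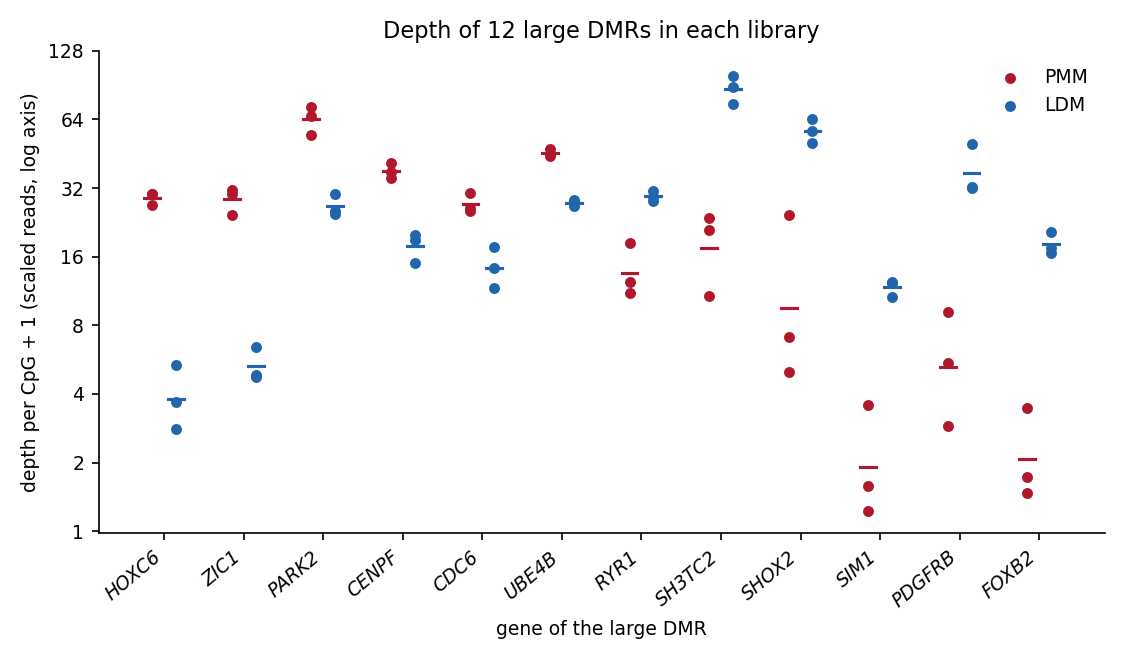
Depth per CpG plus 1 (y axis, scaled reads, log axis) of 12 large DMRs named in the text, with 1 point per library and a bar at the geometric mean, PMM left of LDM at each gene. The muscles do not overlap at any of the 12, and PMM libraries spread most at *SHOX2*, *SIM1*, *PDGFRB* and *FOXB2*.

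Further large differences, picked out after the values had been seen, lay at or near developmental genes. *ZIC1*, a zinc finger transcription factor of neural and somite development, was described together with its surroundings, which were chosen after the values had been seen. The large DMR of 23 CpGs over the first intron and an exon at chr13:95428387-95429055 had depths of 30.5, 29.1 and 23.5 in PMM, against 3.87, 5.41 and 3.75 in LDM (log2 difference 2.43 ± 0.22 SE). A smaller DMR in an intron of the neighbouring *ZIC4*, 14.4 kb away, had 16.3, 12.3 and 12.4 in PMM, against 2.67, 2.76 and 0.719 in LDM. Both were thus thinly covered in LDM, and every PMM library lay well above every LDM library.

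Beyond them the direction turned round. Within 100 kb of the *ZIC1* DMR, 10 DMRs were listed, of which 2 were higher and 8 lower in PMM, and all 8 losses lay 23.3 to 56 kb away on the same side. The largest loss of any large DMR on the log2(depth + 1) scale was among them, an intergenic region of 31 CpGs at chr13:95470362-95471152, 42.0 kb away. Its depths were 2.03, 2.70 and 7.68 in PMM, against 58.6, 48.2 and 42.8 in LDM (11.0-fold lower, log2 difference -3.45 ± 0.36 SE, adjusted p = 0.000264). PMM replicates 1 and 2 were under 3 reads per CpG there, while every LDM library was above 40.

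The other 2 large intergenic DMRs of this stretch were also lower in PMM. At chr13:95459634-95460313, with 31 CpGs, depths were 47.5, 18.1 and 22.2 in PMM, against 88.7, 104 and 86.3 in LDM (3.37-fold lower). At chr13:95484427-95484945, with 23 CpGs, depths were 2.0, 10.5 and 16.9 in PMM, against 38.7, 45.2 and 49.0 in LDM (5.29-fold lower, 3.14-fold without PMM replicate 1). All 4 large DMRs of the stretch kept their direction and their call after subtraction of the density trend. The log2 differences were then 1.69 at *ZIC1* and -2.15, -4.10 and -2.86 at the intergenic DMRs in order of distance. The intergenic DMRs were long losses, of which 81 of 83 kept their call, and they grew with the subtraction. Their kept calls therefore follow from the subtraction itself.

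**Figure D5:**
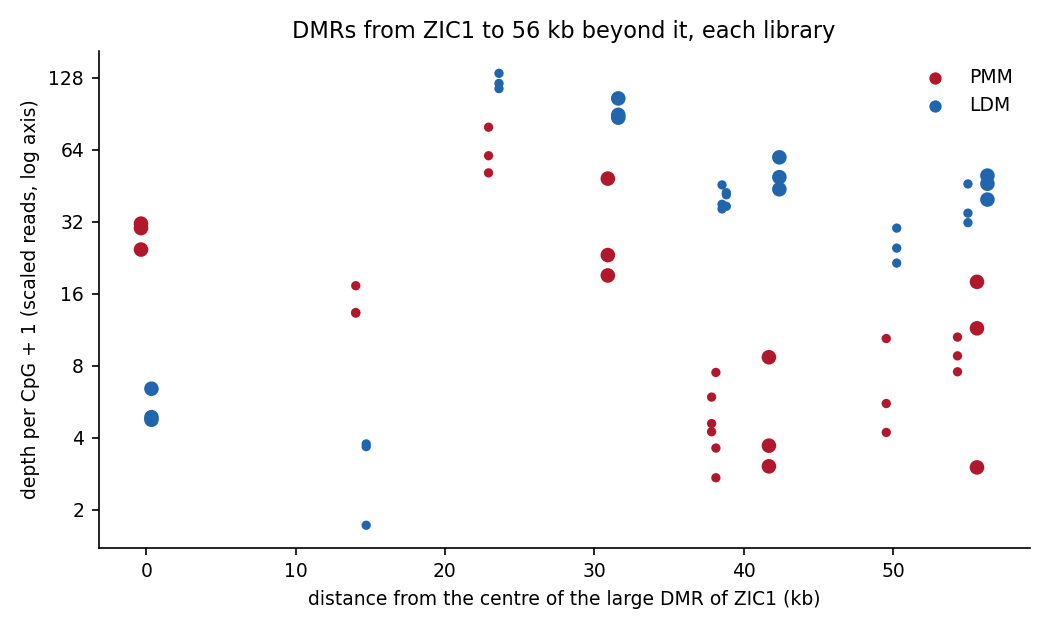
Depth per CpG plus 1 (y axis, scaled reads, log axis) of the 10 DMRs listed within 100 kb of the large *ZIC1* DMR, by distance from its centre (x axis, kb), with 1 point per library, PMM left of LDM, and large symbols for DMRs of 15 or more CpGs. PMM lies above LDM at 0 and 14.4 kb and below it from 23.3 to 56 kb.

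The largest gain of any large DMR lay downstream of *HOXC6*, a homeobox gene of trunk patterning. This DMR of 15 CpGs at chr5:19693926-19694202 had 26.1, 29.1 and 29.1 in PMM, against 1.80, 2.69 and 4.39 in LDM (7.61-fold higher, log2 difference 2.93 ± 0.27 SE, adjusted p = 0.000264). The other 5 DMRs listed within 100 kb were smaller and were all higher in PMM as well, with folds from 2.42 to 8.42. The whole cluster of 6 thus went in 1 direction, unlike that at *ZIC1*. After subtraction of the density trend the log2 difference of the large DMR was 3.0. The difference was thus nearly unchanged. It was a compact gain, and all 26 compact gains kept their call, so the kept call adds no separate evidence.

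Large losses were found at 3 further developmental genes. *FOXB2*, a forkhead transcription factor, had a DMR of 24 CpGs downstream of the gene at chr1:256671248-256671783 with 2.47, 0.727 and 0.476 in PMM, against 19.6, 15.6 and 16.5 in LDM (8.78-fold lower, log2 difference -3.13 ± 0.36 SE, adjusted p = 0.000264). *SIM1*, a transcription factor of hypothalamic neurons, had 27 CpGs in the first intron at chr1:76064063-76065020 with 0.224, 2.58 and 0.577 in PMM, against 11.3, 9.67 and 11.3 in LDM (6.16-fold lower, adjusted p = 0.000339). It was the least covered of all large DMRs. Within 100 kb, 3 smaller DMRs of *SIM1* were also lower, by 3.86-fold to 5.85-fold (the last by 9.44-fold without PMM replicate 1), and 1 in the neighbouring *ASCC3* was 2.82-fold higher.

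*SHOX2*, a homeobox gene of limb and heart development, had 29 CpGs in an exonic island at chr13:106080841-106081240 with 23.3, 4.01 and 6.09 in PMM, against 63.3, 49.4 and 55.8 in LDM (5.97-fold lower, adjusted p = 0.000591, and 9.54-fold lower without PMM replicate 1). The wide spread in PMM came from replicate 1, which still lay below every LDM library. No other DMR was listed within 100 kb of the DMRs of *FOXB2* and *SHOX2*. An intergenic DMR of 30 CpGs at chr15:28049289-28049754 was of similar size, with 12.4, 3.95 and 7.10 in PMM, against 69.0, 41.6 and 44.7 in LDM (6.34-fold lower). These 4 losses also kept their call after subtraction of the density trend, but all 4 were long losses, of which 81 of 83 did so. Those at *FOXB2* and *SIM1* grew with the subtraction (log2 differences -3.57 and -3.44), so their kept calls follow from the subtraction itself. At *SHOX2* and the DMR on chromosome 15 the losses shrank to -1.64 and -2.02.

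Several genes held more than 1 large DMR. *ARHGAP26* had 4, all higher in PMM by 1.35-fold to 1.76-fold, and 15 of its 20 listed DMRs were higher. *PIP4K2A*, *UTP20*, *SKP2*, *E2F7*, *LIMCH1*, *ENOX1* and *SND1* had 2 each, all higher, by 1.32-fold to 1.97-fold. Among them *SKP2*, a subunit of a ubiquitin ligase that acts on cell cycle inhibitors, had folds of 1.67 and 1.80, and *E2F7*, a repressor of cell cycle genes, had folds of 1.60 and 1.95. *SND1*, a nuclease and transcriptional coactivator, had folds of 1.75 and 1.97, and all 8 of its listed DMRs were higher in PMM. After subtraction of the density trend 1 DMR of *ARHGAP26* kept its call, and the other gains of these 8 genes lost theirs. Of these, the *UTP20* DMR of 21 CpGs (adjusted p = 0.0158) and the *PIP4K2A* DMR of 56 CpGs (adjusted p = 0.0224) then passed as lower in PMM.

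Losses recurred in fewer genes. *DCDC2C*, a member of the doublecortin family, had 2 DMRs 1144 bp apart that were 2.95-fold and 1.33-fold lower in PMM, and the call of the smaller was lost without PMM replicate 2 (adjusted p = 0.0663). *FAM122C* had 2 that were 2.75-fold and 2.63-fold lower, the larger in a promoter. In *TRAPPC9*, which encodes a vesicle tethering subunit, 2 DMRs were lower by 2.44-fold and 2.41-fold and 1 was 1.5-fold higher. *C2CD3*, *DST* and *TTLL8* held 1 gain and 1 loss each. In *DST*, a linker of the cytoskeleton, the gain was 1.37-fold and the loss 2.73-fold. After subtraction of the density trend the larger losses of *DCDC2C* and *TRAPPC9* (adjusted p = 0.146 and 0.429) and both of *FAM122C* (0.0884 and 0.135) lost their calls.

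In promoters and gene bodies, 270 large DMRs lay in 259 genes with a symbol, of which 153 passed as higher and 116 as lower in PMM, with a median log2 difference of 0.50, against 0.57 for all 5700 such DMRs (3256 higher and 2444 lower). The small GTPase regulators, which switch Rab, Arf and related proteins, had 9 large DMRs called higher and 3 called lower in 9 genes, 4 of them in *ARHGAP26* (median 0.70, against 0.52 over all 223 DMRs of the list). Large DMRs made up 5.38% of this list, near the 4.74% of all promoter and gene body DMRs. *ARHGEF6*, an exchange factor for Rac and Cdc42, was 1.79-fold higher, and *TBC1D22A* and *TBC1D14* were 2.86-fold and 2.50-fold lower. Kinase and phosphatase signalling genes had 5 called higher and 4 called lower, with *PTPN13*, a protein tyrosine phosphatase, 1.90-fold and *PDE8B*, a cAMP phosphodiesterase, 1.72-fold higher. In this list *PDE6A* and *PIK3AP1* were 3.30-fold and 2.22-fold lower. Ion channel and transporter genes had 6 called higher and 3 called lower, with *ABCC8*, the sulphonylurea receptor, 1.81-fold and *ABCA13* 1.72-fold higher and with *ANO5* 2.61-fold lower. Large DMRs made up 3.83% of the kinase and phosphatase list and 4% of the channel and transporter list, again near 4.74%. Over all DMRs of these 2 lists, 132 of 235 and 130 of 225 were higher. Of the genes named in these 3 lists, *ARHGEF6*, *TBC1D22A*, *PTPN13* and *ANO5* kept their calls after subtraction of the density trend, and *TBC1D14*, *PDE8B*, *PDE6A*, *PIK3AP1*, *ABCC8* and *ABCA13* did not (adjusted p from 0.0647 to 0.9).

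Among genes with a known role in muscle fibres, 4 of 59 DMRs of the contractile and calcium handling list (6.78%) and 2 of 64 of the energy metabolism list (3.12%) were large, against 4.74% of all promoter and gene body DMRs. Of the contractile and calcium handling genes, 3 were called higher and 1 was called lower. *RYR1*, the calcium release channel of the sarcoplasmic reticulum, had an intronic DMR of 218 bp with depths of 17.3, 10.1 and 11.4 in PMM, against 27.2, 29.9 and 28.1 in LDM (2.16-fold lower). Its difference after subtraction of the density trend was -0.02 on the log2 scale (adjusted p = 0.905). *ACTN4* and *ANK2*, which anchor actin and membrane proteins, were 1.93-fold and 1.55-fold higher, and both calls were lost after the subtraction (adjusted p = 0.371 and 0.139). Of the energy metabolism genes, both members with a large DMR were called lower, namely *ESRRB*, an orphan nuclear receptor, by 3.83-fold and *CPT1A*, the liver form of the enzyme that admits fatty acids to mitochondria, by 2.70-fold. After the subtraction the call of *ESRRB* was kept and that of *CPT1A* was lost (log2 difference -0.33, adjusted p = 0.15). The median over all 64 DMRs of this list was 0.68.

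The gene lists that stand for other cells in muscle are groups by function rather than strict markers, and each held few large DMRs. Axon guidance, synapse and nerve genes had 4 large DMRs called higher and 1 called lower (*EPHA1*, an ephrin receptor, 2.05-fold lower), vessel and growth factor receptor genes 2 called higher (*FLT3*, 1.54-fold, and *DLL3*, 1.53-fold) and 1 called lower (*PDGFRB*), and leukocyte genes 2 called higher (*CD58* and *CD44*, 1.74-fold) and 1 called lower (*IL20RB*, 3.28-fold). Matrix and integrin genes had 1 called higher (*GPC3*) and 2 called lower (*ITGAV*, 2.10-fold, and *LAMC3*, 1.94-fold). *PDGFRA*, also in the vessel and growth factor receptor list, did not pass. Large DMRs made up 4.46%, 9.3%, 3.95% and 2.48% of these lists in the same order, against 4.74% of all promoter and gene body DMRs. Of all DMRs of the lists, 57 of 112, 25 of 43, 43 of 76 and 65 of 121 were higher in PMM. Of all promoter and gene body DMRs 3256 of 5700 were higher. The part of other cells in the result was not tested. Chromatin genes had 2 called higher (*NCOR1*, 1.66-fold, and *CREBBP*, 1.48-fold) and 3 called lower, among them the acetyltransferase *KAT6B* by 3.15-fold and the deacetylase *HDAC4* by 2.20-fold. Large DMRs made up 5.56% of the chromatin list, and 51 of all its 90 DMRs were higher. After subtraction of the density trend *EPHA1*, *FLT3*, *DLL3*, *CD44*, *ITGAV*, *NCOR1* and *CREBBP* lost their calls (adjusted p from 0.103 to 0.933), and *PDGFRB*, *IL20RB*, *LAMC3*, *KAT6B* and *HDAC4* kept theirs.

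Developmental lists had few members. Both homeobox genes with a large DMR in a promoter or gene body were called lower, namely *SHOX2* and *PBX4* (1.94-fold). Over all 43 promoter and gene body DMRs of the homeobox list, 26 were higher in PMM, with a median log2 difference of 0.62. Large DMRs made up 4.65% of this list, near the 4.74% of all promoter and gene body DMRs. The gain at *HOXC6*, also a homeobox gene, lay downstream of the gene and was not counted here. Of the other developmental transcription factors *ZIC1* and *FOXN3* (1.68-fold) were called higher and *SIM1* was called lower. Large DMRs made up 4.76% of that list, and 35 of all its 63 DMRs were higher. *TGFBR3*, a coreceptor for transforming growth factor beta, and *SMAD6*, an inhibitor of bone morphogenetic protein signalling, were 1.55-fold and 1.32-fold higher. The calls of *PBX4*, *FOXN3*, *TGFBR3* and *SMAD6* were lost after the subtraction (adjusted p from 0.442 to 0.647). With 2 to 5 large DMRs in most lists, these counts describe single genes.

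At the extremes of coverage and composition, the first intron of *PPAP2A*, a lipid phosphate phosphatase, held by far the deepest large DMR, with 39622, 42518 and 42828 in PMM, against 32551, 30973 and 32632 in LDM. It was 1.30-fold higher in PMM, and a depth of this order was found at no other large DMR. The densest large DMR lay downstream of *LRIG2*, with 11.9 CpGs per 100 bp, and was 2.57-fold lower (call lost after the subtraction, adjusted p = 0.27). The sparsest, with 1.56 CpGs per 100 bp, lay in *SLC35B4*, a nucleotide sugar transporter, and was 1.60-fold higher. The longest large DMRs both spanned 1988 bp, and the one that is not among those with the most CpGs lay at chr2:122399073-122401060 and was 1.68-fold higher.

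Large DMRs were found on all 19 listed chromosomes and made up 3.06% (chromosome 9) to 5.93% (chromosome 12) of the DMRs of a chromosome. The share that was higher in PMM ran from 25.9% of 27 on chromosome 15 to 73.7% of 38 on chromosome 11. Another listed DMR lay within 10 kb of 187 large DMRs (26.3%), and its direction was the same in 69.0% of these, against 24.9% and 61.8% over all DMRs. Long DMRs had such a neighbour in 32.5% of cases and compact DMRs in 18.2%, and the neighbour shared the direction in 73.3% and 58.9% of these. Compact DMRs thus stood alone more often in the list, with a median gap of 46.1 kb to the nearest DMR, against 18.2 kb for long DMRs.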

How the data were processed

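MeDIP-seq was performed on 3 PMM and 3 LDM libraries. Per the study's methods, the authors filtered low-quality reads, aligned the rest to Sscrofa10.2 with SOAP2, kept reads with several positions only once, dropped thinly covered CpGs and joined CpGs that differed between the muscles into DMRs of 5 or more CpGs. The deposited values are a coverage signal, the mean read depth per CpG of a DMR in each library, which the authors scaled by 1 factor per library. The table also holds a p-value and a false discovery rate for each DMR by the authors, which hold the study's own findings and were not used. Multiplied by the number of CpGs, the depths were whole multiples of a step per library (1 to 1.21, within 0.1 steps), but a read over several CpGs enters several times, so no count model was applied. Library totals were not used here, and no interval is given for a single depth. The deposited means per muscle were not used.

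The table has 18176 rows for 15633 DMRs, of which 916 rows describe the 710 large DMRs. Where several annotations applied, promoter took precedence over gene body, then downstream, then intergenic. Gene names are the human symbols of the table, or the pig symbols where none was given, and 37 rows with symbols turned into dates were treated as unnamed. Positions are counted from 1 on Sscrofa10.2. Chromosomal sequences were not used here.

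The log2(depth + 1) values of all 15633 DMRs were fitted in limma (version 3.58.1, under R 4.3.3) by lmFit and by eBayes allowing a mean-variance trend, with muscle as the only term, Benjamini-Hochberg adjustment and a threshold of 0.05. Folds are on this scale, which understates changes of sparsely covered DMRs. The script was tested on simulated data. Library medians were compared by exact permutation tests. Per the study, both muscles of all its pigs were used for the libraries, but no label ties a library to an animal. The p-values measure the spread between these libraries, in which differences between animals and technical differences cannot be told apart. The density trend was a lowess fit of log2(depth + 1) on log2 density in each library. The named DMRs are the 10 with the most CpGs, the 8 largest differences in each direction in promoters and gene bodies, the 6 largest promoter differences in each direction, genes with 2 or more large DMRs, up to 2 per direction in each of 13 gene lists, and the extremes of length, density and depth. *FOXB2*, *HOXC6*, *MYO1F*, *XK*, *PIK3R3*, *PDGFRA*, *ZIC4* and *ASCC3* and the intergenic DMRs on chromosomes 12, 13 and 15 were added after their values had been seen. Some DMRs that this rule names are not reported here. The members and lists were chosen with earlier results of these data known. Alternatives were other pseudocounts, a depth minimum, centring, the density trend, an unmoderated model, a replicate block, each library left out and other limits for CpGs and length.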

Additional observations from a re-analysis of the deposited data

How the results depend on the processing

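The counts of 707 called large DMRs, 345 higher and 362 lower in PMM, stayed within 1.5 times under both pseudocounts, the depth minimum of 10, centring, the unmoderated model and each library left out (703 to 705 in all, 341 to 343 higher and 360 to 362 lower). With the density trend subtracted, 318 were called (70 higher), and the shares higher in PMM were 26.6% of large, 14.7% of compact and 35.7% of long DMRs. With 10 or more CpGs 3079 were called (1241 higher, 1838 lower, 40.3% of all higher), and with 20 or more CpGs 208 (146 higher, 62 lower, 69.9%). The library-level differences were then 0.31 for the median and 0.46 for large minus other DMRs, both reversed; leaving out a library gave -0.56 to -0.42 and -0.40 to -0.30. After the data had been seen, the length limit was also set to 250 bp (3.16% of compact and 74.0% of long DMRs higher) and 400 bp (18.4% and 84.6%). The cause of these shifts was not tested.

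With a replicate block 705 large DMRs were called (343 higher, 362 lower), and both library-level differences had p = 0.25, the smallest that 3 pairs allow in an exact permutation test. Same-numbered libraries had deviations that correlated at 0.0377, 0.241 and 0.0185 across all DMRs, and not every library correlated best with its own number, so the numbers were not taken to pair the samples.

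Of 153 single DMRs named or lying at the described loci, 37 changed sign with the density trend subtracted and a further 37 kept their sign but lost their call. The log2 differences were then 0.026 at *ITGAV* and 0.14 at *PBX4*. They were -0.43 at *PPAP2A*, -0.21 and -0.36 at *PIP4K2A*, -0.082 at *SMAD6*, -0.33 at *SDK2*, -0.31 at *DST*, -0.34 at *UTP20*, -0.29 at *GPC3*, -0.29 at *CREBBP*, -0.095 at *TRAPPC9*, -0.25 at *C2CD3*, -0.14 and -0.23 at *LIMCH1*, -0.086 at *FLT3* and -0.22 at *ANK2*. They were -0.11 at *TGFBR3*, -0.17 at *E2F7*, -0.22 at *SLC35B4*, -0.26, -0.024 and -0.076 at *ARHGAP26*, -0.083 at *ENOX1*, -0.12 at *UBE4B*, -0.055 at *SKP2*, -0.11 at *FOXN3*, -0.10 at *ABCA13*, -0.095 at *PDE8B* and -0.016 at *TFPT* and *PRPF31*. They were -0.058 at *CD44*, -0.034 at *SND1*, -0.011 at *RBSN*, -0.0080 at *EFNA5*, and -0.31, -0.14 and -0.056 at the long intergenic DMRs on chromosomes 8, 2 and 9. Depth limits *SIM1* and *FOXB2*, where PMM had under 3 reads per CpG.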
